A study of Homo sapiens with 24 samples.

Results

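The 10 genes described here, ATF4, DDIT3, TRIB3, CHAC1, ASNS, PSAT1, PHGDH, MTHFD2, SESN2 and DDIT4, belong to the amino acid response that the transcription factor ATF4 controls. They were found by Ensembl identifier among the 39321 rows of a raw gene count table of 24 RNA-Seq libraries. The members were chosen by the ASNS row, which was lower with PD-L1 siRNA under interferon gamma (IFNγ) in the libraries labelled 786-0. For the 786-0 libraries that comparison, the interaction that contains it and every ASNS value are given as a description with no test. A498 and 786-0 are lines of clear cell renal cell carcinoma, and each gave 12 libraries, 3 in each of 4 groups. The cells of every group were transfected with siRNA at 20 nM, either a non-targeting pool (Cnsi) or a pool against PD-L1 (PD-L1si), and 24 h later they were left untreated or were given 50 ng/mL IFNγ for a further 24 h. Silencing was therefore transient, although the labels call the PD-L1si genotype a knockout, and no source said that replicates were separate cultures, so the p-values measure only the spread between these libraries, which may be technical.

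The names of the lines are used here only as labels. The study's text attaches the names A498 and 786-O to these libraries the other way round for several genes, and the lines were sequenced on different instruments, so a difference in level between the lines cannot be told apart from a difference between instruments or from an exchange of names. Of 8 markers of renal carcinoma cells, 8 averaged 1 CPM (a count scaled by its library's total) or more in the A498 libraries and 7 in the 786-0 libraries, where PAX2 was at 0. The summed level of 7 markers of other cell types stayed between 0.239 and 0.916 CPM in the A498 libraries and between 1.23 and 2.99 CPM in the 786-0 libraries. Of these 7, 0 averaged 1 CPM or more in the A498 libraries, where CDX2 was at 0. In the 786-0 libraries 1 did, and ESR1 was at 0. Total counts ran from 19256316 to 27907526 in the A498 libraries and from 26807875 to 30350461 in the 786-0 libraries. In all, 1475 genes with over 1000 counts in the A498 libraries, ATF4 among them, held no count in any 786-0 library. A row at 0 throughout is treated as not measured. CD274, which encodes PD-L1, was at 3.99, 5.49 and 5.74 CPM in A498 Cnsi, 191, 199 and 191 CPM in Cnsi IFNγ, 0.810, 1.01 and 0.926 CPM in PD-L1si, and 26.9, 28.5 and 27.7 CPM in PD-L1si IFNγ. In the 786-0 libraries the same gene was at 3.87, 4.18 and 4.18 CPM, 55.7, 59.6 and 65.8 CPM, 1.46, 1.21 and 1.90 CPM, and 32.7, 30.8 and 30.6 CPM in these groups. The PD-L1si libraries lay below the Cnsi libraries in both lines at both IFNγ states, so CD274 followed the siRNA labels.

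Cells that run short of an amino acid, or meet another stress that acts on the initiation factor eIF2α, slow protein synthesis as a whole while translating the ATF4 mRNA more. ATF4 then pairs with C/EBP and related factors on the promoters of genes for amino acid synthesis, uptake and tRNA charging, and of feedback regulators that end or redirect the response. Because ATF4 is set mainly at translation, the level of its own mRNA is a poor guide to its protein, and its targets are the usual readout. In tumor cells the program is known for supporting survival when nutrients are short. IFNγ is known to induce IDO1, an enzyme that consumes tryptophan, and a shortage of tryptophan can activate the eIF2α kinase GCN2.

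The promoters of the members were searched for letters that ATF4 is known to bind. The letters TGATGNAA, a form of the C/EBP-ATF response element, were searched on both strands in the 250 bases before each start site of RefSeq (GRCh38.p14). They were present in 2 of the 15 entries of the members (13.3%), 1 each for ASNS and CHAC1, against 1104 of all 35116 entries (3.14%) and 13 of the 132 entries of the other genes of the pathway lists used below (9.85%). Both promoters are printed in full because they are the members' only matches, with the matched letters in capitals. The ASNS promoter, chr7:97872409-97872658 on the minus strand, holds its match 68 bases before the start on the strand of the gene, and that of CHAC1, chr15:40953221-40953470 on the plus strand, holds it 209 bases before the start on the opposite strand.
ASNS: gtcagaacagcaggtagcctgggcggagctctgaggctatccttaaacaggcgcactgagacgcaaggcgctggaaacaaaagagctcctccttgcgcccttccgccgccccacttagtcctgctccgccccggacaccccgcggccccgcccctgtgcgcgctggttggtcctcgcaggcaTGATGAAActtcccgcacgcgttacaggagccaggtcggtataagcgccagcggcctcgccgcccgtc
CHAC1: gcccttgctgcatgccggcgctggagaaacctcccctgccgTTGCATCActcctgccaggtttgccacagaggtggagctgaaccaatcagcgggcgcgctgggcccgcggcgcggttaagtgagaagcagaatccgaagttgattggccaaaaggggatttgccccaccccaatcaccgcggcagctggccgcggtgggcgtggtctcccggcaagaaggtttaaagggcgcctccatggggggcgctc
For comparison, the matches of 2 other genes of the pathway that are followed below are shown within short windows, ATF3 at chr1:212565206-212565233 on the plus strand and AARS1 at chr16:70289676-70289703 on the minus strand.
ATF3: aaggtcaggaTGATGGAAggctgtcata
AARS1: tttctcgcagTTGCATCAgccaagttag
A match is a description of these letters, and the other 8 members had none in this window.

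Not every member could be measured. PHGDH, the first enzyme of serine synthesis, held 0 to 3 counts per A498 library and none in any 786-0 library, so it was tested in neither line. ATF4 was at 0 in all 12 of the 786-0 libraries. The filter on low counts, at least 10 counts summed over the 3 libraries of some group, therefore left 9 members in the A498 libraries and 8 in the 786-0 libraries. Per kilobase of annotated exon, the order of the levels in A498 Cnsi was DDIT4 at 680 CPM, ATF4 at 220, PSAT1 at 133, TRIB3 at 102, DDIT3 at 31.7, SESN2 at 27.7, MTHFD2 at 23.0, CHAC1 at 15.3 and ASNS at 0.499. DDIT4 was also the highest per kilobase in 786-0 Cnsi, at 197 CPM, followed by TRIB3 at 54.7 and PSAT1 at 39.0. The ASNS row was again the lowest of the measured members at 0.209. These orders depend on the length used, which for MTHFD2 was 11443 exon bases against 4403 in its canonical transcript. Of the ASNS exon bases, 49.3% are shared with another gene on the same strand, so its rank is that of the row and may not be that of the mRNA. The rows of 3 members share exon sequence with other annotated genes. The canonical ASNS transcript shares 99.5% of its bases with the long noncoding gene ENSG00000284707 on the same strand, and the ASNS row held only 20 to 119 counts per library. MTHFD2 shares 36.8% of its canonical transcript with genes on the opposite strand, and DDIT3 shares 24.3% with opposite-strand genes and 11.6% on its own strand. The kit kept the strand and the counting was stated to use it, but the opposite-strand row ENSG00000264324 stayed at 15.6 to 18.7% of the MTHFD2 count in all 24 libraries, so the values of these 3 rows are less certain than those of the other members. MARS1, opposite DDIT3, held 204 to 1129% of the DDIT3 count in the A498 libraries and 767 to 1283% in the 786-0 libraries. Its part in the DDIT3 values was not tested.

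IFNγ raised most of the members in the A498 libraries and a smaller, mixed part of them in the 786-0 libraries, and PD-L1 siRNA on its own lowered some of them. Calls needed both an edgeR p below 0.05 after adjustment over all genes and a log2 change larger than 0.5 in size. In A498 Cnsi cells, 7 of the 9 members tested were called higher with IFNγ and 0 lower, where 36.8% of all 20916 genes tested were called in either direction and 18.2% were called higher. In A498 PD-L1si cells, 8 of the 9 were called higher, against 33.5% of all genes in either direction and 17.6% higher. In the 786-0 libraries, with ASNS left out, 5 of 7 members were called with IFNγ in Cnsi cells, 4 higher and 1 lower, against 18.5% of all genes. In 786-0 PD-L1si cells 4 of 7 were called, 3 higher and 1 lower, against 18.4%, and this count was 2 without PD-L1si replicate 1. With PD-L1si in the absence of IFNγ, 4 of the 9 members were called lower in the A498 libraries, against 8.48% of all genes in either direction and 5.6% lower. In 786-0 1 of 7 was called lower, against 2.81% in either direction and 1.63% lower, and 2 were without Cnsi replicate 3. With PD-L1si under IFNγ, 0 of the 9 were called in the A498 libraries by edgeR or by DESeq2, against 10.1% of all genes by edgeR. Of these 9, 8 had both an unadjusted and an adjusted p under 0.05 at a smaller fold change, as 34.1% of all genes did for the adjusted p.

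**Figure D1:**
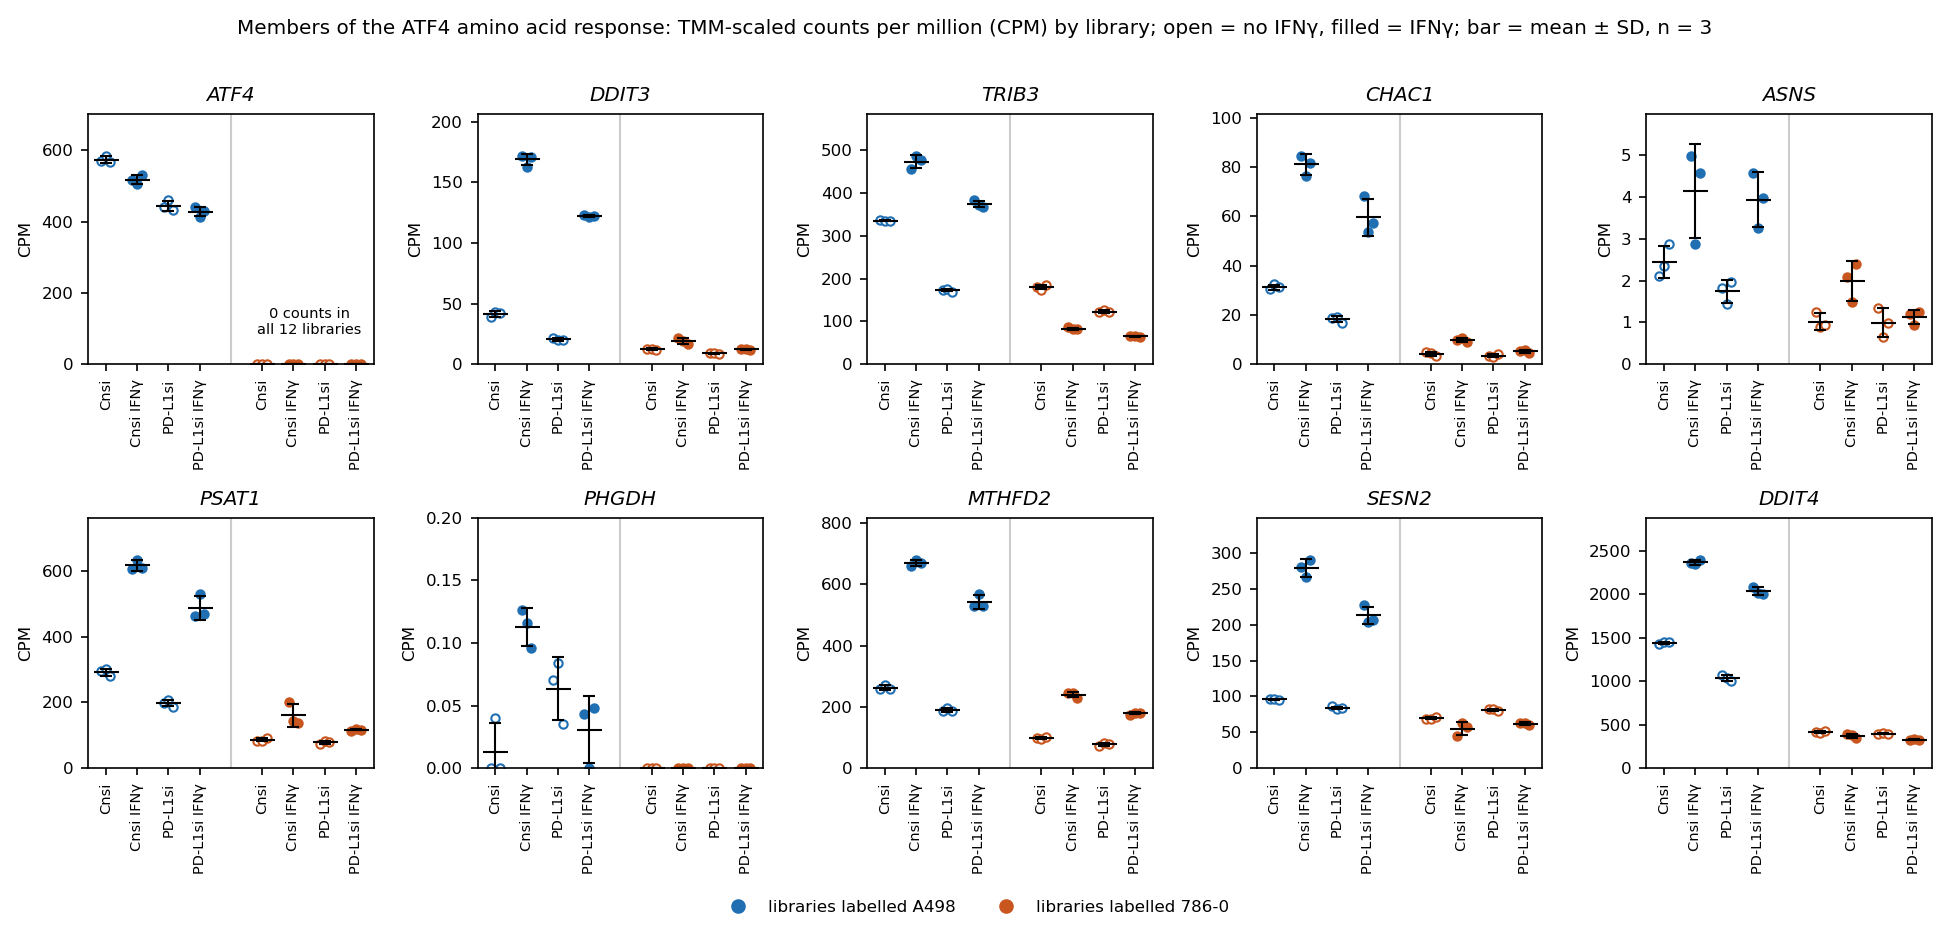
Level of each member in every library, in CPM on a linear axis that starts at 0, by cell line label and group, with 1 point per library and the mean and SD of the 3 libraries in black. The A498 points of DDIT3, CHAC1, PSAT1, MTHFD2, SESN2 and DDIT4 sit higher with IFNγ than without at either siRNA, while the 786-0 points of TRIB3 sit lower with IFNγ and ATF4 is at 0 in all 786-0 libraries.

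ATF4 itself, the factor that drives the program, changed little. The A498 libraries held 571, 585 and 567 CPM of ATF4 in Cnsi, 517, 506 and 532 CPM in Cnsi IFNγ, 440, 460 and 433 CPM in PD-L1si, and 441, 414 and 429 CPM in PD-L1si IFNγ. The Cnsi libraries were the highest, and the PD-L1si groups overlapped each other. ATF4 was 0.902-fold with IFNγ in Cnsi cells (log2 −0.15 ± 0.039 SE, adjusted p = 0.00118) and 0.774-fold with PD-L1si (log2 −0.37 ± 0.039, adjusted p = 1.16e-09), both under the fold-change threshold, and its log2 difference with IFNγ in PD-L1si cells was −0.05 (adjusted p = 0.240). Its mRNA was thus not higher with IFNγ in any A498 comparison, while most of its measured targets were.

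DDIT3 encodes CHOP, a C/EBP family factor that ATF4 induces and that carries the response towards cell death when stress persists. It was at 38.8, 43.3 and 42.1 CPM in A498 Cnsi, 172, 163 and 171 CPM in Cnsi IFNγ, 21.8, 19.9 and 19.9 CPM in PD-L1si, and 123, 121 and 122 CPM in PD-L1si IFNγ. No groups overlapped, and the order was PD-L1si, Cnsi, PD-L1si IFNγ and Cnsi IFNγ. DDIT3 rose 4.07-fold with IFNγ in Cnsi cells (log2 2.03 ± 0.047, adjusted p = 3.87e-29) and 5.93-fold in PD-L1si cells (log2 2.57 ± 0.052, adjusted p = 4.40e-31), the largest change of any member in both comparisons. PD-L1si alone lowered it to 0.496-fold (log2 −1.01 ± 0.055, adjusted p = 6.62e-17), and under IFNγ it was 0.722-fold with PD-L1si (log2 −0.47 ± 0.044, adjusted p = 6.00e-11), under the threshold. The 786-0 libraries held less of it, 12.8, 12.8 and 11.7 CPM in Cnsi, 21.9, 19.3 and 16.3 CPM in Cnsi IFNγ, 9.19, 8.98 and 8.56 CPM in PD-L1si, and 12.7, 12.2 and 12.0 CPM in PD-L1si IFNγ. The Cnsi IFNγ libraries stood above the rest, and those of PD-L1si IFNγ overlapped those of untreated Cnsi. DDIT3 rose 1.54-fold with IFNγ in 786-0 Cnsi cells (log2 0.63 ± 0.088, adjusted p = 2.06e-06), and its 1.38-fold difference in PD-L1si cells (log2 0.46 ± 0.094, adjusted p = 0.000276) and its 0.716-fold difference with PD-L1si alone (log2 −0.48 ± 0.094, adjusted p = 0.000745) stayed under the threshold.

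TRIB3, a pseudokinase that ATF4 and CHOP induce and that holds both in check, differed between the lines in the direction of its response to IFNγ. Its A498 levels were 337, 334 and 334 CPM in Cnsi, 456, 487 and 477 CPM in Cnsi IFNγ, 174, 175 and 169 CPM in PD-L1si, and 383, 372 and 368 CPM in PD-L1si IFNγ. In the 786-0 libraries they were 181, 174 and 185 CPM, 85.9, 81.4 and 81.5 CPM, 123, 126 and 121 CPM, and 65.2, 66.2 and 63.1 CPM in the same order. No groups of a line overlapped, with IFNγ libraries above their untreated counterparts in A498 and below them in 786-0. TRIB3 was 1.41-fold with IFNγ in A498 Cnsi cells, at the threshold (log2 0.50 ± 0.038, adjusted p = 6.62e-14, not called), and rose 2.17-fold in A498 PD-L1si cells (log2 1.12 ± 0.039, adjusted p = 1.28e-23). It fell to 0.461-fold with IFNγ in 786-0 Cnsi cells (log2 −1.12 ± 0.047, adjusted p = 1.47e-16) and to 0.528-fold in 786-0 PD-L1si cells (log2 −0.92 ± 0.047, adjusted p = 1.31e-14). PD-L1si alone lowered TRIB3 in both lines, to 0.515-fold in A498 (log2 −0.96 ± 0.039, adjusted p = 2.83e-20) and to 0.683-fold in 786-0 (log2 −0.55 ± 0.045, adjusted p = 3.60e-09), and it was the only member called in both.

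CHAC1, which breaks down glutathione and is a direct ATF4 target, rose with IFNγ in both lines at either siRNA. Its A498 levels were 30.4, 32.4 and 31.2 CPM in Cnsi, 84.7, 76.6 and 81.9 CPM in Cnsi IFNγ, 18.9, 19.0 and 16.9 CPM in PD-L1si, and 68.1, 53.7 and 57.4 CPM in PD-L1si IFNγ. No A498 groups overlapped. CHAC1 rose 2.59-fold in Cnsi cells (log2 1.37 ± 0.064, adjusted p = 3.71e-18) and 3.28-fold in PD-L1si cells (log2 1.71 ± 0.071, adjusted p = 1.54e-19), and PD-L1si alone lowered it to 0.582-fold (log2 −0.78 ± 0.075, adjusted p = 6.30e-10). Under IFNγ it was 0.739-fold with PD-L1si (log2 −0.44 ± 0.061, adjusted p = 9.41e-07), which passed the threshold at −0.55 only when PD-L1si IFNγ replicate 1, its highest library, was left out. In 786-0 the gene was near the lower end of the measured range, at 4.99, 4.43 and 3.46 CPM in Cnsi, 9.96, 10.5 and 8.87 CPM in Cnsi IFNγ, 3.36, 3.01 and 4.20 CPM in PD-L1si, and 5.52, 5.62 and 4.47 CPM in PD-L1si IFNγ. The lowest Cnsi IFNγ library, at 8.87 CPM, lay above the highest of the others, at 5.62 CPM. The rise was 2.28-fold in Cnsi cells (log2 1.19 ± 0.131, adjusted p = 4.75e-08) and 1.48-fold in PD-L1si cells (log2 0.56 ± 0.144, adjusted p = 0.00289), and the latter was no longer called, at 0.46 to 0.50, when PD-L1si replicate 1 or 2 or PD-L1si IFNγ replicate 2 was left out.

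ASNS makes asparagine from aspartate and glutamine and its promoter is a classic model of control by ATF4. Its row was at 2.11, 2.35 and 2.87 CPM in A498 Cnsi, 4.99, 2.87 and 4.57 CPM in Cnsi IFNγ, 1.83, 1.43 and 1.96 CPM in PD-L1si, and 4.58, 3.27 and 3.97 CPM in PD-L1si IFNγ. Cnsi and Cnsi IFNγ met at 2.87 CPM, while the PD-L1si libraries with and without IFNγ did not overlap. ASNS rose 1.68-fold with IFNγ in A498 Cnsi cells (log2 0.75 ± 0.175, adjusted p = 0.000436) and 2.26-fold in PD-L1si cells (log2 1.18 ± 0.191, adjusted p = 2.76e-06). With PD-L1si it was 0.719-fold without IFNγ (log2 −0.48 ± 0.204, adjusted p = 0.0770) and 0.969-fold under IFNγ (log2 −0.04 ± 0.165, adjusted p = 0.871), neither past the test. The 786-0 rows that led to the choice of these genes were 1.25, 0.894 and 0.926 CPM in Cnsi, 2.08, 1.48 and 2.40 CPM in Cnsi IFNγ, 1.35, 0.655 and 0.984 CPM in PD-L1si, and 1.19, 0.931 and 1.26 CPM in PD-L1si IFNγ. The 3 Cnsi IFNγ libraries lay highest, from 1.48 CPM against at most 1.35 CPM elsewhere, on 40 to 61 counts each. ASNS was 0.568-fold with PD-L1si under IFNγ (log2 −0.82 ± 0.237), 1.93-fold with IFNγ in Cnsi cells (log2 0.95) and 1.13-fold with IFNγ in PD-L1si cells (log2 0.18). The row of ENSG00000284707, which shares the ASNS transcript, went from 16 to 21 counts in 786-0 Cnsi IFNγ to 21 to 36 counts in PD-L1si IFNγ, and its part in the ASNS values was not tested.

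PSAT1, the second enzyme of serine synthesis, and MTHFD2, a mitochondrial enzyme of the one-carbon pathway that serine feeds, rose with IFNγ in both lines. PSAT1 was at 295, 302 and 281 CPM in A498 Cnsi, 606, 634 and 608 CPM in Cnsi IFNγ, 198, 208 and 187 CPM in PD-L1si, and 463, 528 and 468 CPM in PD-L1si IFNγ. In 786-0 it was at 83.1, 83.2 and 91.7 CPM, 201, 144 and 138 CPM, 74.7, 83.8 and 78.4 CPM, and 114, 119 and 116 CPM in these groups. The IFNγ libraries lay above the untreated ones throughout, and replicate 1 of 786-0 Cnsi IFNγ stood apart from its group. PSAT1 rose 2.11-fold in A498 Cnsi cells (log2 1.07 ± 0.046, adjusted p = 6.63e-21), 2.46-fold in A498 PD-L1si cells (log2 1.30 ± 0.047, adjusted p = 3.98e-23), 1.87-fold in 786-0 Cnsi cells (log2 0.90 ± 0.127, adjusted p = 0.000271) and 1.48-fold in 786-0 PD-L1si cells (log2 0.56 ± 0.128, adjusted p = 0.00609). Without the library that stood apart, the 786-0 Cnsi value was 0.71 and remained called, and without 786-0 PD-L1si replicate 1 the PD-L1si value was 0.48 and was not. PD-L1si alone lowered PSAT1 to 0.675-fold in A498 (log2 −0.57 ± 0.047, adjusted p = 4.09e-12), and it was 0.918-fold in 786-0 (log2 −0.12 ± 0.128, adjusted p = 0.628).

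MTHFD2 ran from 259 to 271 CPM in A498 Cnsi, 660 to 681 CPM in Cnsi IFNγ, 185 to 197 CPM in PD-L1si and 529 to 570 CPM in PD-L1si IFNγ. Its 786-0 levels ran from 96.3 to 103 CPM, 230 to 246 CPM, 73.7 to 83.5 CPM and 175 to 181 CPM in the same order. No groups overlapped in either line. The rise with IFNγ was 2.55-fold and 2.87-fold in A498 Cnsi and PD-L1si cells and 2.43-fold and 2.27-fold in 786-0 (log2 1.35, 1.52, 1.28 and 1.18, adjusted p = 1.17e-25, 4.43e-27, 5.02e-17 and 3.53e-16). Of the 7 members tested for a difference between the lines, described below, MTHFD2 had the smallest at either siRNA. With PD-L1si alone it was 0.719-fold in A498 (log2 −0.48 ± 0.041, adjusted p = 1.05e-11) and 0.796-fold in 786-0 (log2 −0.33 ± 0.051, adjusted p = 5.52e-05), both under the threshold.

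SESN2 and DDIT4, which hold back the growth kinase complex mTORC1, rose with IFNγ in the A498 libraries. SESN2, a leucine sensor, was at 96.2, 96.3 and 95.2 CPM in A498 Cnsi, 280, 266 and 291 CPM in Cnsi IFNγ, 86.2, 83.0 and 83.5 CPM in PD-L1si, and 227, 204 and 207 CPM in PD-L1si IFNγ. It was at 68.4, 69.1 and 72.0 CPM in 786-0 Cnsi, 44.7, 62.3 and 57.2 CPM in Cnsi IFNγ, 82.0, 82.1 and 79.4 CPM in PD-L1si, and 63.5, 62.5 and 60.0 CPM in PD-L1si IFNγ. The A498 libraries were higher with IFNγ and the 786-0 libraries lower, with replicate 1 of 786-0 Cnsi IFNγ again apart. SESN2 rose 2.91-fold in A498 Cnsi cells (log2 1.54 ± 0.045, adjusted p = 3.49e-26) and 2.53-fold in A498 PD-L1si cells (log2 1.34 ± 0.045, adjusted p = 4.09e-24). Its 786-0 differences were 0.783-fold (log2 −0.35 ± 0.082, adjusted p = 0.00224) and 0.764-fold (log2 −0.39 ± 0.081, adjusted p = 0.000879), under the threshold.

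DDIT4, also known as REDD1 and induced by low oxygen as well as by ATF4, was the most abundant member, at 1424 to 1451 CPM in A498 Cnsi, 2342 to 2397 CPM in Cnsi IFNγ, 1003 to 1072 CPM in PD-L1si and 2003 to 2085 CPM in PD-L1si IFNγ. In 786-0 it ran from 407 to 429 CPM, 349 to 391 CPM, 396 to 401 CPM and 321 to 331 CPM in these groups. DDIT4 rose 1.64-fold with IFNγ in A498 Cnsi cells (log2 0.72 ± 0.037, adjusted p = 1.21e-18) and 1.96-fold in A498 PD-L1si cells (log2 0.97 ± 0.037, adjusted p = 1.87e-22). In 786-0 it was 0.893-fold and 0.817-fold (log2 −0.16 and −0.29, adjusted p = 0.00566 and 1.16e-05), under the threshold. PD-L1si alone left both genes under the threshold in both lines, from 0.719-fold for DDIT4 in A498 (log2 −0.48 ± 0.037, adjusted p = 8.83e-13) to 1.16-fold for SESN2 in 786-0 (log2 0.22 ± 0.080, adjusted p = 0.0920).

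**Figure D2:**
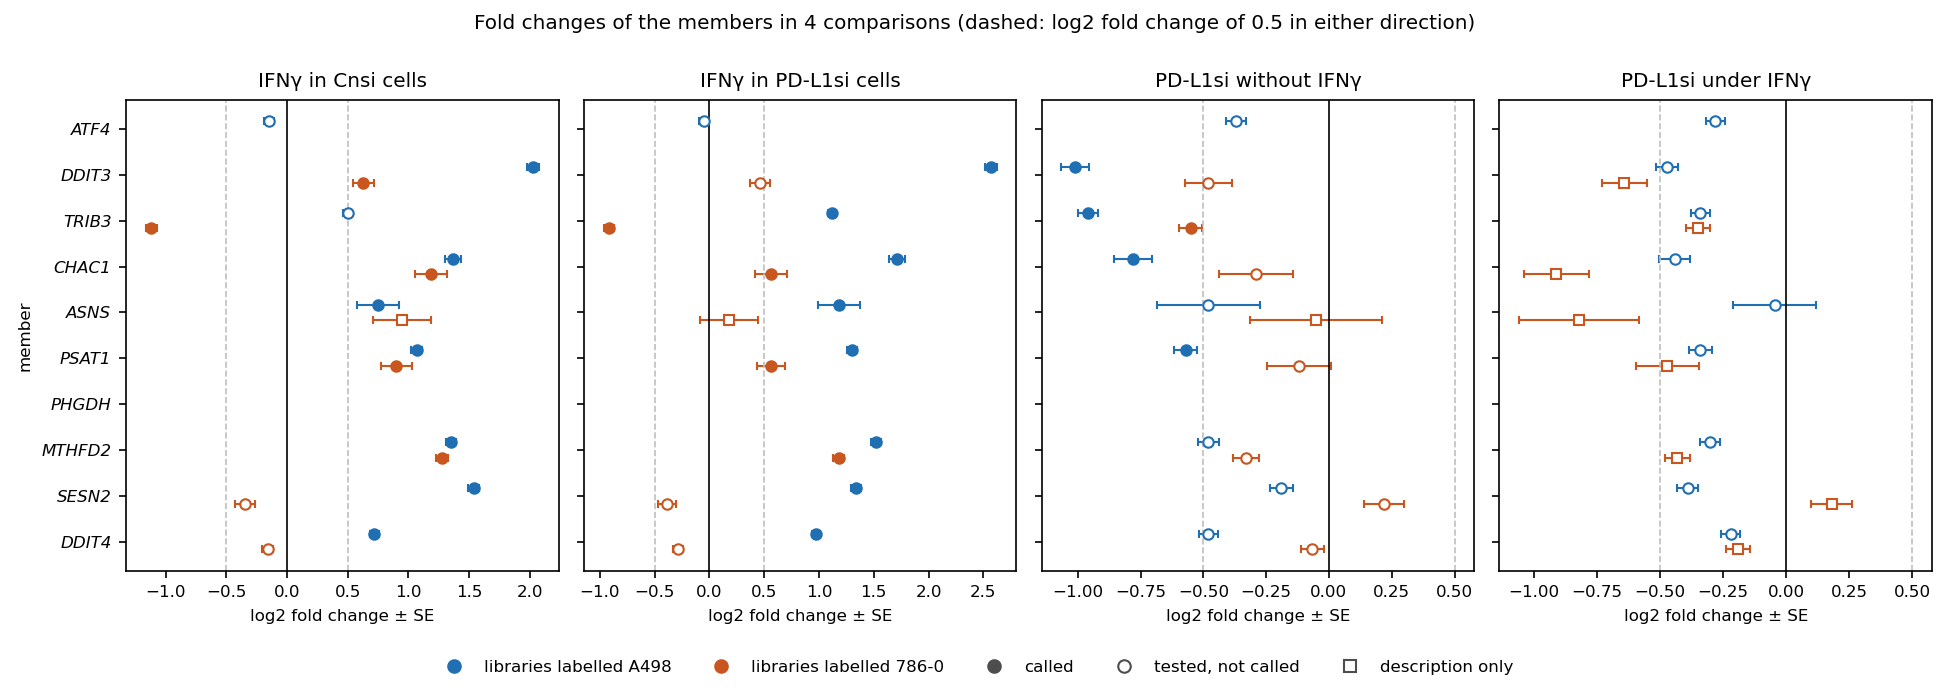
Log2 fold change of each measured member in 4 comparisons within each line, on the x axis, with the standard error as the bar, filled circles for called values, open circles for tested values that were not called and squares for values given with no test. In the IFNγ panels the A498 points lie above 0 except for ATF4 and the 786-0 points of TRIB3, SESN2 and DDIT4 lie below 0, and in the PD-L1si panels every A498 point lies below 0.

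Under IFNγ, the differences with PD-L1si in the A498 libraries were smaller in size than without it for every tested member but SESN2 (log2 −0.39 under IFNγ and −0.19 without). The log2 differences of the A498 libraries ran from −0.47 for DDIT3 through −0.44 for CHAC1, −0.39 for SESN2, −0.34 for PSAT1 and TRIB3, −0.30 for MTHFD2, −0.28 for ATF4 and −0.22 for DDIT4 to −0.04 for ASNS, and the 8 with an adjusted p under 0.05 were all members but ASNS. For 786-0, given with no test, the log2 difference was −0.91 for CHAC1, −0.82 for ASNS, −0.64 for DDIT3, −0.47 for PSAT1, −0.43 for MTHFD2, −0.35 for TRIB3, −0.19 for DDIT4 and 0.18 for SESN2. These were larger in size than without IFNγ for all of the measured members but TRIB3 and SESN2. Of the 7 members beside ASNS, 2 lay past the thresholds for a call and 3.03% of all genes did, a comparison from which nothing is read because the rule used it. The PSAT1 and SESN2 values rested in part on replicate 1 of Cnsi IFNγ, and without it they were −0.28 and 0.05.

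Whether IFNγ acted differently once PD-L1 was silenced is a question of the interaction, the log2 IFNγ change in PD-L1si cells minus that in Cnsi cells. There were 2 members called in the A498 libraries, TRIB3 at 0.62 ± 0.054 (adjusted p = 3.03e-10) and DDIT3 at 0.54 ± 0.071 (adjusted p = 1.05e-06), against 2.45% of all genes in either direction and 1.81% higher. Both were lower in untreated PD-L1si cells than in untreated Cnsi cells, and under IFNγ the fold differences were smaller. In CPM the DDIT3 difference was larger under IFNγ, with means of 169 in Cnsi and 122 in PD-L1si against 41.4 and 20.5 untreated. Without PD-L1si replicate 3 the DDIT3 interaction was 0.50 and 1 member was called. CHAC1 (0.34), DDIT4 (0.26), PSAT1 (0.23), MTHFD2 (0.17) and SESN2 (−0.20) had smaller values, and ASNS (0.43 ± 0.263, adjusted p = 0.364) and ATF4 (0.09 ± 0.055, adjusted p = 0.335) did not pass the test. The 786-0 interaction, given with no test, was −0.77 for ASNS, −0.63 for CHAC1, −0.34 for PSAT1, −0.16 for DDIT3, −0.13 for DDIT4, −0.10 for MTHFD2, −0.04 for SESN2 and 0.19 for TRIB3.

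The response to IFNγ differed between the lines for some members and not detectably for others. In Cnsi cells the 786-0 change was smaller than the A498 change by 1.90 for SESN2 (log2 −1.90 ± 0.092, adjusted p = 9.01e-18), 1.62 for TRIB3 (−1.62 ± 0.058, adjusted p = 1.93e-24), 1.41 for DDIT3 (−1.41 ± 0.094, adjusted p = 6.95e-16) and 0.89 for DDIT4 (−0.89 ± 0.058, adjusted p = 4.22e-16). These 4 of the 7 members tested stand against 28.4% of all 17999 genes tested in either direction and 13.2% lower. The differences for CHAC1 (−0.19 ± 0.153, adjusted p = 0.327), PSAT1 (−0.18 ± 0.140, adjusted p = 0.332) and MTHFD2 (−0.08 ± 0.065, adjusted p = 0.362) did not pass the test. The members that passed in Cnsi cells were thus the feedback regulator, CHOP and the mTORC1 inhibitors. CHAC1 and the biosynthetic enzymes PSAT1 and MTHFD2 did not pass there, and a difference between these sets of members was not tested. In PD-L1si cells 6 of 7 were called, against 25.9% of all genes in either direction and 12.8% lower, with DDIT3 at −2.11, TRIB3 at −2.04, SESN2 at −1.73, DDIT4 at −1.26, CHAC1 at −1.15 and PSAT1 at −0.74. MTHFD2, at −0.34 (adjusted p = 3.26e-05), was under the fold-change threshold. Line, instrument and the naming of the lines cannot be told apart in these differences.

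The rest of the pathway was followed through lists of genes around ATF4. With IFNγ in Cnsi cells, 18.2% of all genes tested were called higher and 18.5% lower in A498, and 11.1% higher and 7.39% lower in 786-0. With PD-L1si alone, 5.6% and 1.63% were called lower in these lines. Of 15 partner factors and other stress targets, 9 were called higher and 0 lower with IFNγ in A498 Cnsi cells, with a median log2 change of 0.80 against −0.03 over all genes tested, and 10 of 15 were called lower with PD-L1si alone, with a median of −0.62. ATF3, a stress factor that works with ATF4 and CHOP, rose 11.7-fold with IFNγ in A498 Cnsi cells, from a mean of 19.3 to 226 CPM (log2 3.55 ± 0.058, adjusted p = 4.57e-34), and fell to 0.419-fold with PD-L1si alone (log2 −1.26 ± 0.079, adjusted p = 3.18e-15). Only 10 of the list were measured in 786-0, of which 3 were called higher with IFNγ in Cnsi cells and 1 lower with PD-L1si alone, and ATF3 rose 4.94-fold with IFNγ (log2 2.30 ± 0.061, adjusted p = 7.76e-21). Among the called genes of the pathway lists, CBS, an enzyme of cysteine synthesis in the same list, had the largest positive A498 interaction, at 0.89 ± 0.144 (adjusted p = 4.33e-05).

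Of 12 aminoacyl-tRNA synthetases that ATF4 is known to raise, 6 were called higher and 0 lower with IFNγ in A498 Cnsi cells (median 0.56), and of 8 other cytosolic synthetases 3 were called higher and 3 lower (median 0.22). WARS1, which charges tryptophan and is also induced by IFNγ directly, rose 32.9-fold in A498 Cnsi cells (log2 5.04 ± 0.046, adjusted p = 1.40e-41) and 42.4-fold in 786-0 Cnsi cells (log2 5.41 ± 0.061, adjusted p = 1.71e-28). AARS1, which charges alanine and carries the promoter match shown above, rose 2.04-fold in A498 Cnsi cells (log2 1.03 ± 0.038, adjusted p = 4.16e-23) and was not measured in 786-0. In the 786-0 libraries 5 of the 12 were measured, of which 3 were called higher with IFNγ and 0 with PD-L1si alone, while PD-L1si alone called 2 of the 12 lower in A498.

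The transporters that import amino acids were measured in part. With IFNγ in Cnsi cells, 3 of 9 were called higher and 0 lower in A498 (median 0.30), and 0 of 7 higher and 3 lower in 786-0 (median −0.04). SLC7A5, which carries leucine and other large neutral amino acids, fell to 0.420-fold in 786-0 Cnsi cells, from 792 to 333 CPM (log2 −1.25 ± 0.052, adjusted p = 1.40e-16), and was 1.17-fold in A498 (log2 0.22 ± 0.043, adjusted p = 2.58e-05). SLC7A11, the cystine carrier that supplies glutathione synthesis, fell with PD-L1si alone to 0.448-fold in 786-0 (log2 −1.16 ± 0.052, adjusted p = 3.59e-14) and to 0.556-fold in A498 (log2 −0.85 ± 0.050, adjusted p = 5.46e-16). Its mean in 786-0 went from 120 to 51.4 CPM with PD-L1si under IFNγ (log2 −1.22, with no test), a larger difference than that of any member there.

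The enzymes around PSAT1 and MTHFD2 changed in both directions. Of 15 measured enzymes of serine, glycine, one-carbon and proline metabolism, 5 were called higher and 4 lower with IFNγ in A498 Cnsi cells (median 0.27), and 1 higher and 1 lower in 786-0 (median 0.07). PSPH, which completes the serine synthesis in which PSAT1 takes part, was 1.20-fold in A498 (log2 0.27 ± 0.051, adjusted p = 2.78e-05) and 0.819-fold in 786-0 (log2 −0.29 ± 0.139, adjusted p = 0.141), while SHMT2, the mitochondrial enzyme that passes serine carbon to MTHFD2, was called at 1.43-fold in A498 (log2 0.51 ± 0.042, adjusted p = 4.57e-13) and was 1.15-fold in 786-0 (log2 0.21 ± 0.048, adjusted p = 0.00103). GOT1, an aspartate aminotransferase, had a negative A498 interaction of −0.60 ± 0.063 (adjusted p = 1.01e-08).

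Upstream of ATF4, 5 of 16 genes of the eIF2α kinases and translation control were called higher and 2 lower with IFNγ in A498 Cnsi cells (median −0.02), where 36.8% of all genes were called in either direction, and 1 of 15 higher and 0 lower in 786-0. PPP1R15A, the feedback subunit that removes the phosphate from eIF2α, rose 4.85-fold in A498 Cnsi cells (log2 2.28 ± 0.044, adjusted p = 1.18e-31) and was 1.07-fold in 786-0 (log2 0.10 ± 0.063, adjusted p = 0.219). It fell to 0.425-fold with PD-L1si alone (log2 −1.24 ± 0.049, adjusted p = 1.09e-20) and to 0.554-fold under IFNγ (log2 −0.85 ± 0.042, adjusted p = 5.03e-18) in A498. OMA1, the mitochondrial protease that relays stress to eIF2α, rose 1.76-fold with PD-L1si under IFNγ there (log2 0.82 ± 0.095, adjusted p = 1.03e-08). Of the endoplasmic reticulum stress response genes outside ATF4, 1 of 16 was called higher and 7 lower with IFNγ in A498 Cnsi cells (median −0.21), and 1 of 13 higher and 0 lower in 786-0 (median 0.23). ERN1, which encodes the stress sensor IRE1, was the 1 called higher in A498, at 2.41-fold (log2 1.27 ± 0.063, adjusted p = 3.47e-19), and fell to 0.537-fold with PD-L1si under IFNγ (log2 −0.90 ± 0.062, adjusted p = 4.97e-14). Among mTORC1 and its amino acid sensors, 0 of 10 were called higher and 1 lower in A498 and 0 of 8 higher and 1 lower in 786-0. CASTOR2, a relative of the arginine sensor CASTOR1, was 0.261-fold with IFNγ in A498 PD-L1si cells (log2 −1.94 ± 0.091, adjusted p = 7.58e-20).

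**Figure D3:**
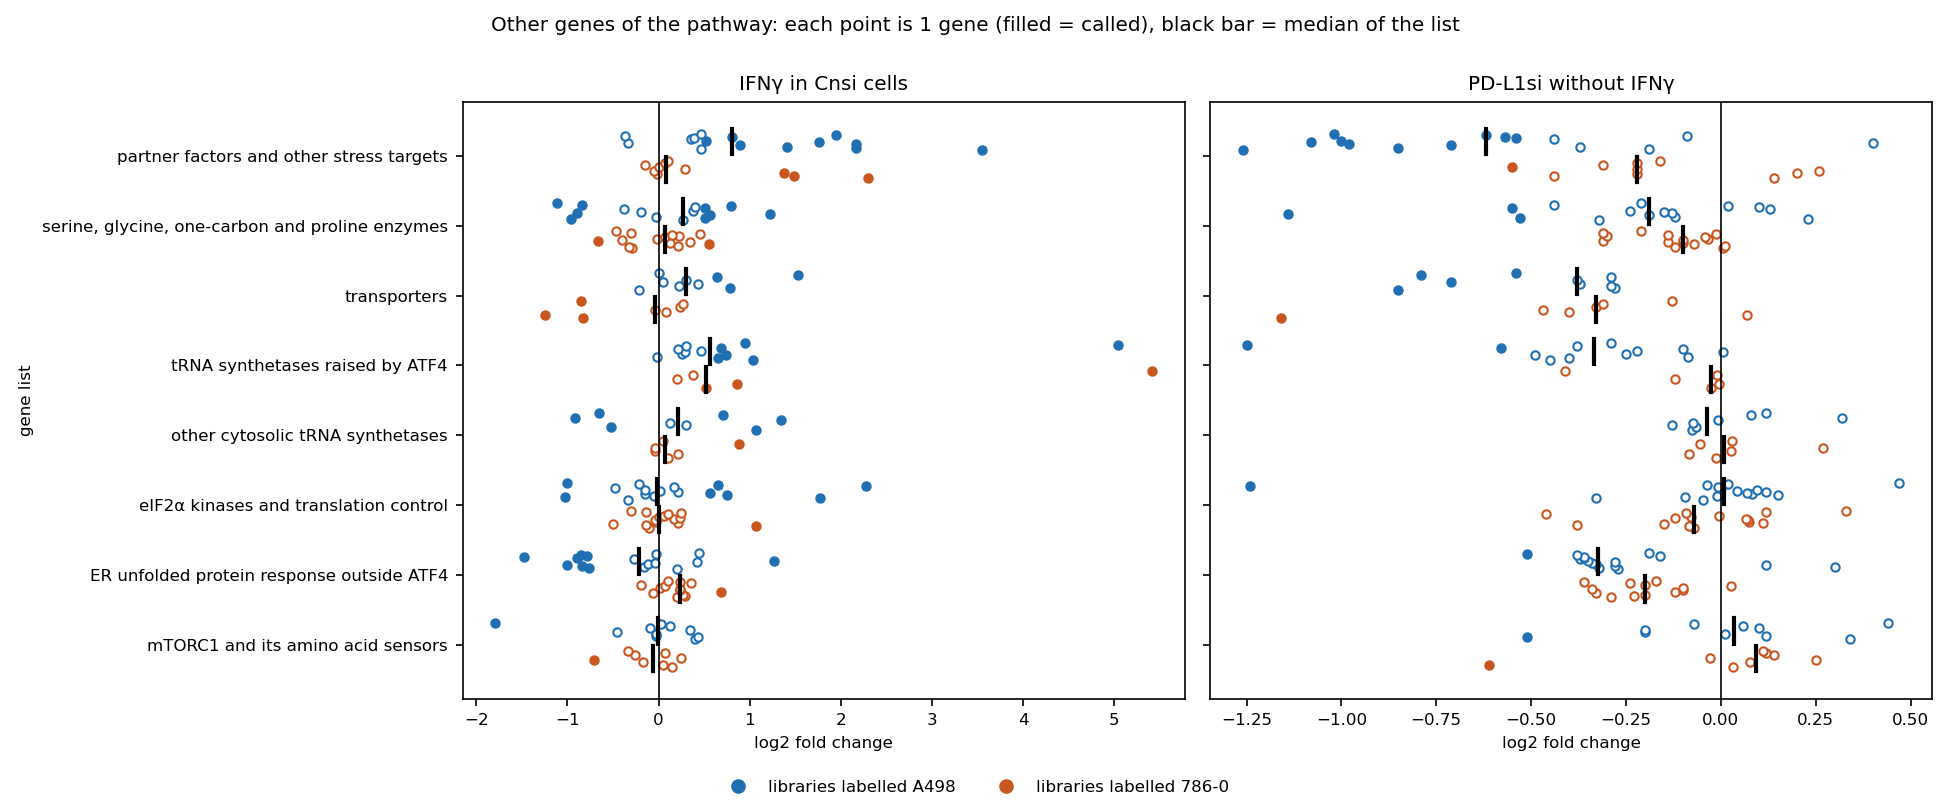
Log2 fold change of the other genes of the pathway, with 1 point per measured gene, filled where called, and a black bar at the median of each list, for IFNγ in Cnsi cells and for PD-L1si without IFNγ. Among partner factors and other stress targets, 9 of 15 A498 points are filled to the right with IFNγ and 10 of 15 to the left with PD-L1si, and of the 10 measured in 786-0 there are 3 and 1.

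The 7 close relatives of the members were measured in both lines. Of TRIB1, TRIB2, CHAC2, SESN1, SESN3, DDIT4L and MTHFD2L, 1 was called higher and 1 lower with IFNγ in A498 Cnsi cells, and 3 higher and 1 lower in 786-0. SESN3 fell to 0.564-fold with PD-L1si alone in 786-0 (log2 −0.83 ± 0.086, adjusted p = 1.64e-07), where SESN2 was 1.16-fold. Of the renal carcinoma markers, CDH6 changed with IFNγ in A498 Cnsi cells to 0.0845-fold (log2 −3.57 ± 0.076), and CA9 fell to 0.473-fold in 786-0 (log2 −1.08 ± 0.082). Of the markers of other cell types, PECAM1, of endothelial cells, was higher with IFNγ in 786-0, from a mean of 0.156 to 0.709 CPM in Cnsi cells (adjusted p = 3.66e-05) and from 0.177 to 1.12 CPM in PD-L1si cells (adjusted p = 3.24e-07), on 3 to 34 counts per library. The part of these marker changes in the values of the members was not tested.

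The genes whose profile over the 12 libraries of a line was most like that of ASNS were sought by the root mean square difference of log2 levels, each centred on its own mean. Over the A498 libraries these were LINC01943 (0.1522), PABPC1L (0.1532), CLSTN3 (0.1627), ARID5A (0.1765) and DBNDD2 (0.1823) of 14955 genes with a median of 0.5124, and the nearest member was DDIT4 (0.2125). Over the 786-0 libraries they were DUS4L (0.1980), TVP23C (0.1994), PODNL1 (0.2043), GCA (0.2055) and ENSG00000271918 (0.2077) of 14163 genes with a median of 0.3950, and the nearest member was DDIT3 (0.2811). In 786-0, TRIB3 (0.7742), SESN2 (0.5567), MTHFD2 (0.486) and DDIT4 (0.4192) were less like ASNS than the median gene. In A498 this held for DDIT3 (0.8017). The other tested members lay under the median of their line. These values describe the same libraries and share their depth, and ASNS was followed through few counts. No gene was among the 5 nearest in both lines.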

How the data were processed

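RNA was sequenced with a stranded poly(A) kit from 24 libraries, grouped by the labels. The authors trimmed reads with Trimmomatic 0.36.6, aligned them to GRCh38 with HISAT2 2.1.0 and counted them over the exons of each gene with featureCounts 1.6.3 in a strand-specific mode. The deposited values are raw counts without normalization, and 0 columns had no sample. Of 39321 identifiers, 39148 were matched to GENCODE 44 without the version.

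Here, genes with at least 10 counts summed over the 3 libraries of some group were fitted with edgeR 4.0.16 (TMM, robust quasi-likelihood F-test, older form of the fit) in R 4.3.3, over the 12 libraries of a line or all 24 for differences between lines. Of all genes, 20916, 21209 and 17999 were tested in A498, 786-0 and both, and p-values were adjusted by Benjamini-Hochberg over them. Standard errors follow from the F statistic, and values per group are the mean of 3 libraries, in CPM of the TMM-scaled total. All 24 pairs of replicates differed by more than sampling noise. The pipeline was tested on simulated data. The members, the pathway lists and the tests were chosen with earlier results of these data known, and the ASNS row in the 786-0 libraries led to the choice. Genes named from the other lists are, per comparison, the 2 higher and the 2 lower called genes with the largest change at a mean of at least 1 CPM, with PPP1R15A, ATF3, SLC7A11, PSPH, SHMT2 and AARS1. Alternatives were DESeq2 1.42.0, relative log expression, no filter, protein-coding genes, the adjusted p alone, a replicate block and the omission of each library.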

Additional observations from a re-analysis of the deposited data

Results flagged for a closer look

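All of the results listed here are differences between groups in the response to IFNγ, each from an edgeR test of the difference itself. PD-L1 silencing went with a larger log2 response in A498 of TRIB3, by 0.62, and of DDIT3, by 0.54. In Cnsi cells the 786-0 response was lower than the A498 response, on the log2 scale, for TRIB3 (−1.62), SESN2 (−1.90), DDIT4 (−0.89) and DDIT3 (−1.41). In PD-L1si cells it was lower for TRIB3 (−2.04), CHAC1 (−1.15), SESN2 (−1.73), PSAT1 (−0.74), DDIT4 (−1.26) and DDIT3 (−2.11).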

How the results depend on the processing

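DESeq2, relative log expression, no filter and protein-coding genes alone kept every count of called members within 1.5 times its value, and no called value reversed among the 1989 values of members under all alternatives, where 5 called values lost their call, each with 1 library left out. TRIB3 with IFNγ in A498 Cnsi cells, at the threshold, was called at 0.51 by DESeq2 and with relative log expression. With the adjusted p alone, the counts for PD-L1si without IFNγ, PD-L1si under IFNγ and the interaction in A498 were 8, 8 and 7 in place of 4, 0 and 2 (30.8, 34.1 and 9.08% of all genes), and in 786-0 those for IFNγ in PD-L1si cells and PD-L1si without IFNγ were 7 and 3 in place of 4 and 1 (38.5 and 12.8%). Such counts are not given for PD-L1si under IFNγ in 786-0, which the rule used. Leaving out each library in turn gave 7 to 8, 8, 4, 0 to 1 and 1 to 2 called members in A498 for IFNγ in Cnsi cells, IFNγ in PD-L1si cells, PD-L1si without IFNγ, PD-L1si under IFNγ and the interaction. In 786-0 the first 3 of these were 5, 2 to 4 and 1 to 2, and the differences between lines stayed at 4 and 6. The 1 under IFNγ came without A498 PD-L1si IFNγ replicate 1. The cause of these changes was not tested.

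Libraries with the same replicate number deviated together little over all tested genes (mean correlation 0.0141 in each line, 1 of 18 pairs in 786-0 over 0.1). This cannot exclude a pairing, since the noise of genes with few counts lowers such a correlation. A replicate block left each count of called members within 1.5 times its value (7 with IFNγ in A498 Cnsi cells). With the block, more genes passed the adjusted p in every A498 contrast and fewer in every 786-0 contrast. For PD-L1si without IFNγ they went from 6452 to 6796 in A498 and from 2721 to 2677 in 786-0. Few counts limit the ASNS row, at 20 to 119 per library, and the PHGDH row, at 0 to 3. The smallest library held 19256316 counts in total. The part of the exon bases that ASNS shares with ENSG00000284707 in its low counts was not tested.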
